A study of Mus musculus with 16 samples.

Results

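The nuclear genes of respiratory complexes III, IV and V were examined in the brains of aged male mice treated with adropin or saline. Members were the protein-coding genes whose symbols begin with Uqcr, Cox4 to Cox8 or Atp5, together with Cyc1 and Cycs. The rule found 45 of the 40481 genes listed: 9 of complex III, 18 of complex IV, 17 of complex V and Cycs, the carrier between complexes III and IV. The mice were C57BL by the labels and C57BL/6J by the study's text, and were bought at 18 months of age. They received a daily intraperitoneal injection over 4 weeks of adropin(34-76), the putative secreted part of the peptide, at 90 nmol/kg, or of diluent. The peptide was suspended in saline with bovine serum albumin. The study calls the control injection diluent or saline diluent and the labels call it saline, so whether it held albumin is not certain. RNA was sequenced from 8 mice of each group. Each mouse is called by the 2 numbers of its label. What they stand for is not given in the sources used here, and the labels name the tissue as brain without a region.

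Complex III passes electrons from ubiquinol to cytochrome c, complex IV (cytochrome c oxidase) passes them on to oxygen, and complex V (ATP synthase) uses the resulting proton gradient to make ATP. Each complex joins a few subunits encoded by mitochondrial DNA to many encoded in the nucleus, so the nuclear genes are transcribed apart from one another and their products are imported and assembled. Brain tissue relies heavily on this pathway to restore ion gradients after synaptic activity, and complex IV also has isoforms typical of heart and skeletal muscle, lung or testis.

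Promoter sequence was read for 34 of the 45 members from RefSeq on GRCm38.p6, from 250 bases before to 50 bases after the start of each gene. The windows were searched on both strands for the letters GCGCA, any base, then GCGC, a recognition sequence of NRF1, a known regulator of respiratory genes. A match was present in 8 of the 34 members (23.5%) and in 5.19% of 27025 genes with such a window. The matching members encode a core subunit of complex III (Uqcrc1), a subunit of complex IV (Cox6a1) and 6 subunits of complex V (Atp5c1, Atp5g2, Atp5g3, Atp5h, Atp5k and Atp5o). One window from each complex and one further complex V gene are shown so that the shared letters can be seen, in the direction of the gene, with the match in capitals.
Uqcrc1, chr9:108936668-108936697, plus strand: actccgctctGCGCATGCGCagcgcggctc
Cox6a1, chr5:115349101-115349130, minus strand: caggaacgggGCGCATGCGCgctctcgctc
Atp5g2, chr15:102671070-102671099, minus strand: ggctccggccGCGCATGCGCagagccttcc
Atp5k, chr5:108434430-108434459, minus strand: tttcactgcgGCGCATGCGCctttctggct

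In these 4 windows the match reads the same on both strands. The letters CCGGAAGT, bound by ETS factors such as GABPA, were present in 4 members (11.8%, against 4.31% of genes), which were Uqcr11, Uqcrh, Cox8a and Atp5h. The letters AAGATGGCG, bound by YY1, were present in Atp5j and Atp5j2 (5.9%, against 1.64%), and GGGGCGGGG, bound by SP1, in 6 members (17.6%, against 12.9%). The median log2 fold change (adropin minus saline) was -0.06 in the 8 members with an NRF1 match and -0.11 in the 24 tested members with a window and no match. For ETS it was -0.13 with and -0.095 without a match, for YY1 -0.12 and -0.095, and for SP1 -0.04 and -0.10, so the direction differed between motifs.

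The sequenced libraries held 35185051 to 70314050 counts in adropin-treated mice and 35026503 to 47245785 in saline-treated mice. Of the 45 members, 42 passed the filter on low counts (more than 1 CPM, that is, counts scaled to the library total, in at least 7 mice) and were tested with the other genes by edgeR's quasi-likelihood test. The members together made up 0.663% to 0.873% of a library's counts after adropin and 0.672% to 0.933% after saline. Markers of neurons, astrocytes, oligodendrocytes, microglia and endothelium were present in every mouse. All 5 oligodendrocyte markers had a log2 fold change below 0 (median -0.20, none at an unadjusted p below 0.05), and their sum was 4391 ± 1550 CPM after adropin and 5225 ± 1586 CPM after saline (SD), with 7 of 8 adropin-treated mice below the saline median. The microglia markers summed to 187 ± 15.2 CPM after adropin and 172 ± 14.8 CPM after saline, with 1 of 5 (Cx3cr1) higher at an unadjusted p below 0.05. The part of these cells in the results on the members was not tested. The summed level of 5 choroid plexus markers was 2460 CPM in saline-treated mouse 8_3 and 328 CPM in saline-treated mouse 5_4, and 11.1 to 73.4 CPM in adropin-treated mice, with a saline median of 20.9 CPM. The cerebellum markers summed to 369 CPM in mouse 8_3 and to 36.3 to 79.6 CPM in the other 15 mice. In bulk tissue, fewer cells of a type and less RNA per cell cannot be told apart.

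None of the 42 members differed between groups at an unadjusted p below 0.05, in either direction, by edgeR, limma-voom or DESeq2. Among all 14949 genes tested, 1.86% were higher and 2.13% were lower at that threshold by edgeR. After Benjamini-Hochberg adjustment no gene passed by edgeR and 5 did by DESeq2, none of them a member. The smallest p among the members belonged to Cox6b2, the testis isoform of subunit 6B (unadjusted p = 0.0667, adjusted p = 0.874, edgeR). Leaving out 1 mouse took it to an unadjusted p of 0.0258 (without adropin-treated mouse 4_3), 0.0429 (without adropin-treated mouse 7_4) or 0.0128 (without saline-treated mouse 5_3). In those fits 9.67%, 4.07% and 6.56% of all genes had an unadjusted p below 0.05, and Cox6b2 was the 1 member of 42 that did. The 95% interval of the log2 fold change included 0 in all 42. The values of the groups overlapped in every tested member, as they did in all but 0.00669% of the genes tested.

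The estimates nevertheless lay mostly on one side. The log2 fold change was below 0 in 37 of 42 members (88.1%), against 50.8% of all genes tested, and its median was -0.10 against -0.0019. The members are shorter than most genes (median exon length 813 bases, against 3272 over all genes tested), and of other protein-coding genes under 1000 bases 91.3% were below 0. When a trend of level on exon length was removed from each library, an alternative chosen after the data had been seen, the count fell to 17 of 42. The median was -0.10 in complex III, -0.11 in complex IV and -0.097 in complex V. These genes share the same mice and rise and fall together in them, and the counts are given as a description.

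**Figure D1:**
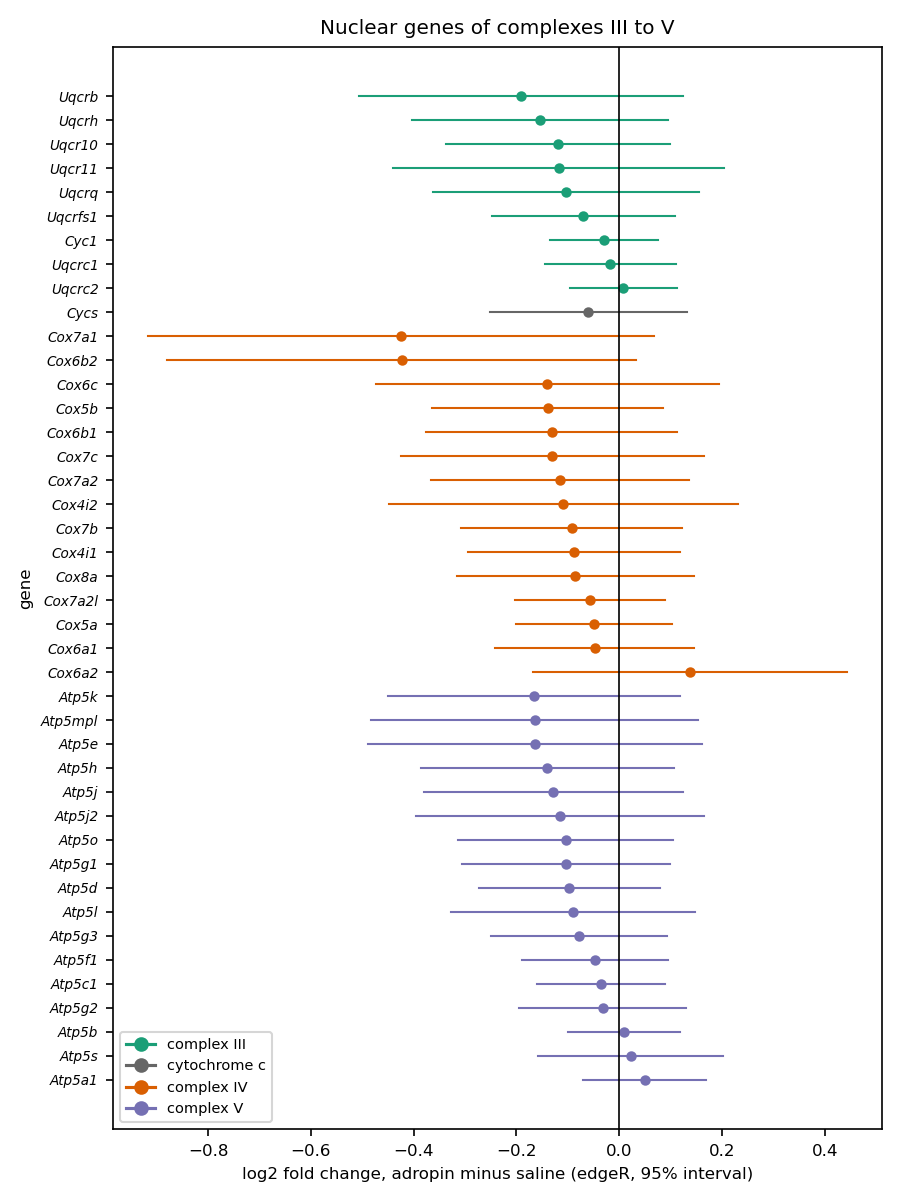
The log2 fold change of each tested gene (horizontal axis, adropin minus saline, edgeR) is shown by complex, with points for estimates and lines for 95% intervals. Every line crosses 0, and 37 of 42 points lie to its left.

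Among the nuclear-encoded subunits of complex III, those that carry out electron transfer or form its core had estimates close to 0. The mitochondrial-encoded gene of the complex, mt-Cytb, was at -0.23. Cyc1, the haem protein cytochrome c1 (chromosome 15, 76343523 to 76346260 on GRCm38), ranged from 164 to 181 TMM-normalized CPM (median 173) in adropin-treated mice and from 161 to 196 CPM (median 172) in saline-treated mice. All adropin values lay within the saline range, and the log2 fold change was -0.03 (SE 0.05). Uqcrc1, the first core protein, ranged from 296 to 355 CPM with adropin and from 284 to 371 CPM with saline. Uqcrc2, the second core protein, was at 154 ± 8.35 and 153 ± 9.36 CPM (SD, n = 8 each). Uqcrfs1, the Rieske iron-sulphur protein, was at 72.0 ± 7.81 and 75.6 ± 11.0 CPM, a log2 fold change of -0.07 (SE 0.08).

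The 5 accessory subunits of complex III all had estimates below 0, with a median log2 fold change of -0.12, against -0.02 for the 4 core and catalytic genes. Their median exon lengths were 535 and 1587 bases, and with the length trend removed 2 of the 5 accessory and 3 of the 4 core genes were above 0, with medians of -0.0021 and 0.03. Uqcrb, a small subunit near the ubiquinone pocket, had the lowest estimate of the complex. Its level ranged from 48.6 to 83.0 CPM (median 53.2) in adropin-treated mice and from 48.6 to 101 CPM (median 61.3) in saline-treated mice. The lowest values of the groups were nearly equal, and the highest saline value, in mouse 5_4, lay above all adropin values. The log2 fold change was -0.19 (95% interval -0.51 to 0.12, edgeR unadjusted p = 0.218), and -0.09 without mouse 5_4 or -0.12 without mouse 8_3. Uqcrh, the hinge protein, had the smallest p of the complex (0.211), with 113 to 166 CPM (median 128) after adropin and 110 to 200 CPM (median 138) after saline. Its log2 fold change was -0.15, and -0.09 without mouse 5_4 or -0.08 without mouse 8_3. Uqcr10, Uqcr11 and Uqcrq had log2 fold changes of -0.12, -0.12 and -0.10. With 1 mouse left out they ran from -0.166 to -0.0465, from -0.195 to 0.0152 and from -0.154 to -0.0088. Cycs, somatic cytochrome c, was at 67.9 ± 7.23 and 70.8 ± 11.7 CPM, with a log2 fold change of -0.06 (-0.0912 to -0.000295 with 1 mouse left out).

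The ubiquitous subunits of complex IV were abundant and close between groups. Per kilobase of exon, Cox8a (777 CPM per kb), Cox6a1 (706) and Cox4i1 (601) had the highest mean levels of all members, followed by Atp5b (533). Cox4i1, the ubiquitous form of subunit 4, ranged from 394 to 535 CPM (median 436) in adropin-treated mice and from 394 to 621 CPM (median 444) in saline-treated mice. The groups began at the same level and differed in their highest mice, and the log2 fold change was -0.09 (SE 0.10). Cox5a was at 57.7 ± 3.69 and 59.7 ± 7.72 CPM, and Cox5b, which binds zinc, ranged from 146 to 215 CPM (median 165) with adropin and from 154 to 267 CPM (median 180) with saline. The highest Cox5b value, in saline-treated mouse 5_4, stood apart from the nearest saline value of 207 CPM. Cox5b had a log2 fold change of -0.14, and of -0.05 without that mouse. Cox6c and Cox7c, small membrane subunits, had log2 fold changes of -0.14 and -0.13, and Cox7b, on the X chromosome, one of -0.09.

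**Figure D2:**
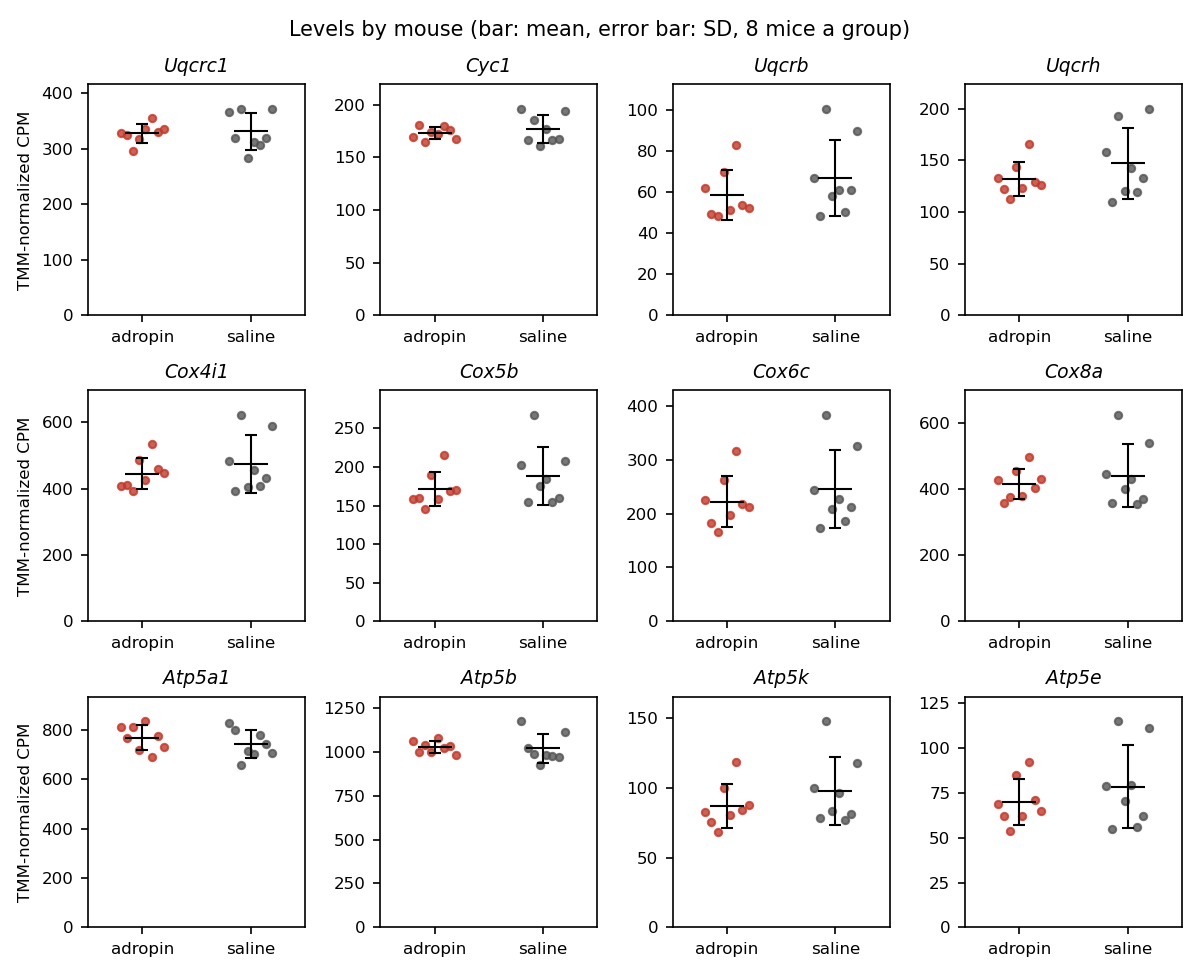
Each panel plots the TMM-normalized CPM of one gene in every mouse (points), with the group mean and SD (bar and error bar), for 4 genes each of complexes III, IV and V. The groups overlap in every panel, and Cox5b reaches 267 CPM in one saline-treated mouse.

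The largest estimates of all members belonged to scarce isoforms of complex IV. Cox7a1, the heart and muscle form of subunit 7A, ranged from 0.834 to 1.60 CPM (median 1.32) in adropin-treated mice and from 0.992 to 3.97 CPM (median 1.48) in saline-treated mice. The saline maximum, in mouse 8_3, was far above the next saline value of 1.89 CPM, and the adropin minimum, in mouse 4_1, lay below the next value of 1.26 CPM. The log2 fold change was -0.42 (95% interval -0.92 to 0.068, edgeR unadjusted p = 0.0867), and -0.13 without mouse 8_3. Its unadjusted p was 0.0377 when saline-treated mouse 6_1 was left out, a fit in which 5.04% of all genes were below 0.05. Cox6b2 ranged from 1.48 to 3.26 CPM (median 1.92) after adropin and from 1.31 to 4.77 CPM (median 2.71) after saline, again with its highest value in mouse 8_3. Its log2 fold change was -0.42 (95% interval -0.88 to 0.032) and -0.28 without that mouse. Mouse 8_3 also had the highest choroid plexus and cerebellum marker sums (2460 and 369 CPM). The part of those tissues in the Cox7a1 and Cox6b2 values was not tested.

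Cox6a2, the heart and muscle form of subunit 6A, had the highest estimate of the members. It ranged from 8.47 to 15.3 CPM (median 10.9) in adropin-treated mice and from 6.84 to 13.1 CPM (median 9.87) in saline-treated mice, a log2 fold change of 0.14 (SE 0.15). The estimate was 0.06 without adropin-treated mouse 7_4 and 0.07 without saline-treated mouse 6_1. It was -0.06 when the first label number was blocked, which rests on mice whose first number occurs in both groups. As a share of Cox6a1 per kilobase of exon it was 2.35% ± 0.388 with adropin and 2.06% ± 0.349 with saline (SD, n = 8 each), and 7 of 8 adropin-treated mice lay above the saline median. The share of Cox4i2, the lung-type form, relative to Cox4i1 was 0.423% ± 0.103 and 0.435% ± 0.0662. Cox7a1 relative to Cox7a2, the ubiquitous form, was 1.52% ± 0.225 and 1.83% ± 0.634, with 3.24% in mouse 8_3. Cox6b2 relative to Cox6b1 was 1.01% ± 0.219 and 1.22% ± 0.298. The ranges of the groups overlapped for each of these shares. Cox7a2l, which takes part in joining complexes III and IV, ranged from 103 to 127 CPM with adropin and from 102 to 141 CPM with saline.

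The filter left out 3 isoforms. Cox8c, the testis form of subunit 8, had no count in any of the 16 mice, which allows at most 0.0856 CPM in the smallest library, counting error only. Cox7b2, the testis form of subunit 7B, had 0 to 20 counts a mouse. Cox8b, the heart and muscle form of subunit 8, had 0 to 84 counts a mouse and ranged from 0 to 0.401 CPM (median 0.292) in adropin-treated mice and from 0.136 to 1.94 CPM (median 0.481) in saline-treated mice. The groups overlapped, although all 8 adropin-treated mice lay below the saline median, and the values of 1.94 and 1.82 CPM in mice 5_4 and 8_3, which also had the highest choroid plexus marker sums, were the highest. When the filter was dropped Cox8b had a log2 fold change of -1.47 (edgeR unadjusted p = 0.0108, adjusted p = 0.663), and 6.3% of the 30210 genes then fitted had an unadjusted p below 0.05. The part of choroid plexus RNA in this value was not tested.

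**Figure D3:**
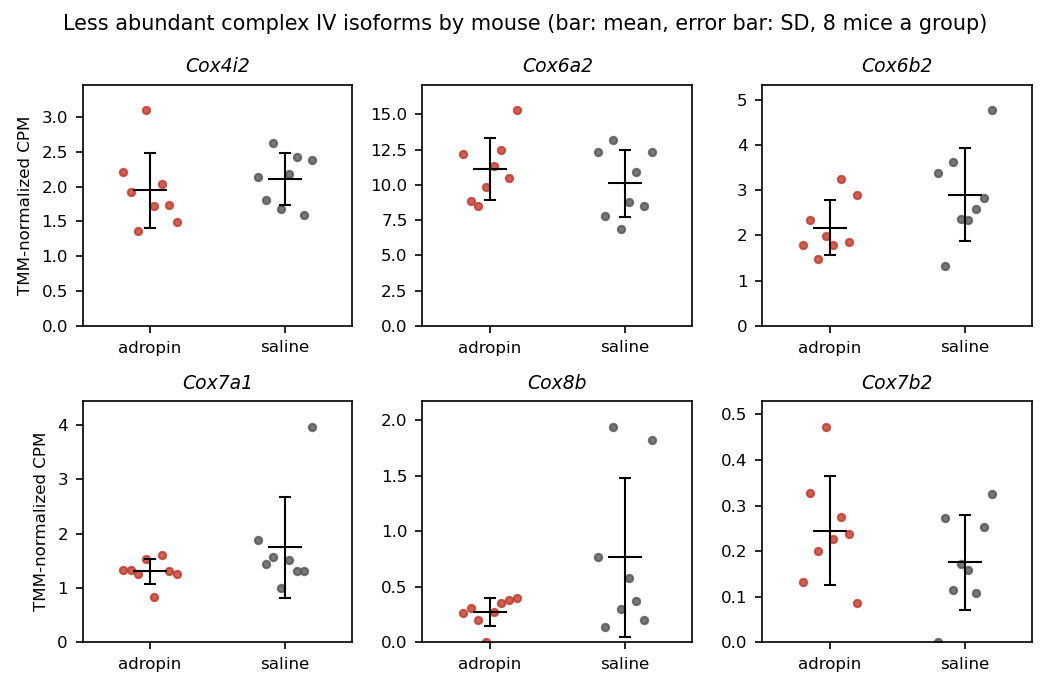
TMM-normalized CPM of 6 scarce complex IV isoforms in every mouse (points) with the group mean and SD (bar and error bar). A single saline-treated mouse reaches 3.97 CPM for Cox7a1, and a pair of saline-treated mice carry the Cox8b values above 1.5 CPM.

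In complex V, the catalytic head (F1) differed little between groups for its large subunits. Atp5b, the catalytic beta subunit, was the most abundant member per library, at 979 to 1076 CPM (median 1028) in adropin-treated mice and 926 to 1173 CPM (median 983) in saline-treated mice, and its log2 fold change was 0.0098 (95% interval -0.099 to 0.12). Atp5a1, the alpha subunit, ranged from 692 to 836 CPM with adropin, at 768 ± 50.6 CPM (SD), and was at 743 ± 57.0 CPM with saline, with 2 of the adropin-treated mice below the saline median. It had the highest estimate of the complex (0.05, SE 0.06). Of the central stalk, Atp5c1 (gamma) was at 179 ± 10.7 and 184 ± 17.3 CPM, Atp5d (delta) at 245 ± 24.4 and 262 ± 38.4 CPM, and Atp5e (epsilon) at 70.0 ± 12.8 and 78.4 ± 23.2 CPM (SD, n = 8 each), with log2 fold changes of -0.04, -0.10 and -0.16. These F1 genes thus ran from 0.05 to -0.16.

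The membrane part (Fo), c-ring and peripheral stalk of complex V had estimates below 0 throughout. These 11 genes are mostly shorter than those of F1, and 6 of them (Atp5k, Atp5l, Atp5g2, Atp5g3, Atp5f1 and Atp5o) were above 0 with the length trend removed, as were 4 of the 5 F1 genes. Atp5k, subunit e, which helps ATP synthase form dimers, had the lowest estimate and the smallest p of the complex. It ranged from 68.2 to 119 CPM (median 83.5) in adropin-treated mice and from 77.1 to 148 CPM (median 90.0) in saline-treated mice. Of the 8 adropin-treated mice 6 lay below the saline median, and the log2 fold change was -0.17 (95% interval -0.45 to 0.12, edgeR unadjusted p = 0.235), and -0.06 without mouse 5_4. The median log2 fold change was -0.14 over Atp5k, Atp5l (subunit g), Atp5j2 (subunit f) and Atp5mpl (the 6.8PL subunit), and -0.12 over the peripheral stalk genes Atp5f1, Atp5h, Atp5j and Atp5o. Atp5s, coupling factor B, which the symbol rule places here, was at 14.2 ± 1.29 and 14.0 ± 1.98 CPM.

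The c-ring, whose rotation drives ATP synthesis, is encoded by 3 genes that yield the same mature protein. Per kilobase of exon, Atp5g3 was the most abundant (263 CPM per kb), then Atp5g2 (73.9), then Atp5g1 (29.6). This order depends on the exon length of 4912 bases used for Atp5g1. Without scaling by length the mean levels were 191 CPM for Atp5g3, 145 CPM for Atp5g1 and 54.0 CPM for Atp5g2. The log2 fold changes of Atp5g3, Atp5g2 and Atp5g1 were -0.08, -0.03 and -0.10. Per kilobase, Atp5g2 relative to Atp5g3 was 28.6% ± 1.93 with adropin and 27.7% ± 1.66 with saline, and Atp5g1 relative to Atp5g3 11.1% ± 0.698 and 11.3% ± 0.746 (SD, n = 8 each).

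The subunits of these complexes moved together from mouse to mouse. Over the 39 members of at least 10 CPM, the mean log2 level relative to each gene's mean ranged from -0.22 in adropin-treated mouse 2_4 to 0.43 in saline-treated mouse 5_4, followed by 0.33 in saline-treated mouse 8_3 and 0.24 in adropin-treated mouse 4_3. Within a mouse the means of the complexes lay only 0.0049 to 0.097 apart, against a range of 0.64 over mice. Mouse 5_4 held the highest value of 27 of the 39 members, and mouse 2_4 the lowest of 18. The saline SD exceeded the adropin SD in 41 of the 42 tested members, and the share over all genes was not computed. The mean over other genes under 1000 exon bases also spread more after saline (SD 0.25) than after adropin (0.18). Over genes of 2000 or more the SDs were 0.059 and 0.058. The group means of the complexes differed by -0.08 (III), -0.06 (IV) and -0.07 (V) against pooled SDs of 0.19, 0.22 and 0.19. Without mouse 5_4 the median log2 fold changes were -0.02, -0.03 and -0.03 for complexes III, IV and V, with 32 of 42 members below 0. Without mouse 8_3 they were -0.06, -0.05 and -0.05, and without mouse 2_4 -0.06, -0.06 and -0.06. Gm42418, which lies over ribosomal RNA sequence, took 0.840% to 4.98% of the counts after adropin and 0.985% to 3.26% after saline. Only the first label numbers 2, 5 and 7 occur in both groups, so a block on that number compares only those mice, 5_4 among them. In that fit the medians were further below 0, at -0.155, -0.223 and -0.183, with all 42 members below 0 (median over all genes -0.00065). With the level of Gm42418 as a covariate they were -0.0036, -0.011 and -0.011 and 30 of 42 members were below 0. Mice 5_4 and 8_3 also had the highest choroid plexus marker sums, and all 5 of those markers were lower with adropin at an unadjusted p below 0.05 (edgeR), against 2.13% of all genes. Without mouse 8_3 this held for 2 of the 5. Over all 16 mice the group medians of the marker sum were 18.5 CPM (adropin) and 20.9 CPM (saline). The part of that tissue and of Gm42418 in these medians was not tested.

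Other genes with short transcripts moved with them. The mean of 288 other protein-coding genes with under 1000 exon bases was 0.51 in mouse 5_4, 0.35 in mouse 8_3, 0.29 in mouse 4_3 and -0.24 in mouse 2_4, close to the members' own means. The mean of 7902 genes with 2000 or more exon bases was -0.12 in mouse 5_4 and 0.08 in mouse 2_4. By the basic annotation 23 of the 42 members have under 1000 exon bases, 16 have 1000 to under 2000 and 3 have 2000 or more, and by the full annotation 11, 16 and 15.

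**Figure D4:**
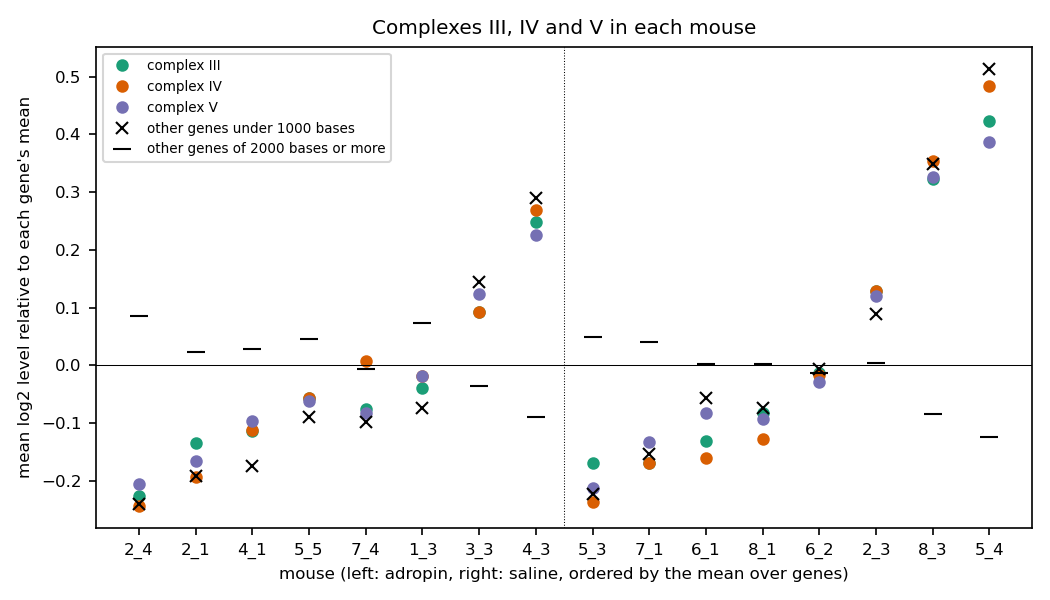
The mean log2 level of complexes III, IV and V (coloured points) in each mouse, relative to each gene's mean over mice, is plotted with other genes under 1000 exon bases (crosses) and of 2000 or more (dashes). The complexes and the other short genes are highest in saline-treated mouse 5_4 and follow each other across the 16 mice.

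Gene length and fold change went together over the whole table. Of 459 other protein-coding genes under 1000 exon bases, 91.3% had a log2 fold change below 0, with a median of -0.12, and of the 23 members in that class 95.7% did, also with a median of -0.12. From 1000 to under 2000 bases the medians were -0.06 for 2341 other genes and -0.06 for 16 members, and at 2000 bases or more 0.02 for 10719 other genes and -0.06 for 3 members. Measured by the full annotation, the medians were -0.12 for members and -0.13 for other genes under 1000 bases, and -0.10 and -0.07 from 1000 to under 2000. At 2000 bases or more they were -0.05 for 15 members (73.3% below 0) and 0.01 for 12004 other genes (45.4% below 0). Length was not matched within that open-ended class and the difference was not tested. Spearman's rho between exon length and log2 fold change, across genes that are not independent replicates and share their libraries, was 0.56 over 42 members and 0.45 over 13519 other genes. Of the 23 members under 1000 bases, 13 lay between the quartiles of other genes of that length (-0.16 and -0.07), 6 lay below (Cox7a1, Cox6b2, Uqcrb, Atp5k, Atp5mpl and Atp5e) and 4 above (Cox6a2, Cox6a1, Cox5a and Atp5g2). Of the 16 members of the next class 10 lay between its quartiles, and of the 3 longest Cycs and Atp5g1 lay below the lower quartile of -0.04.

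**Figure D5:**
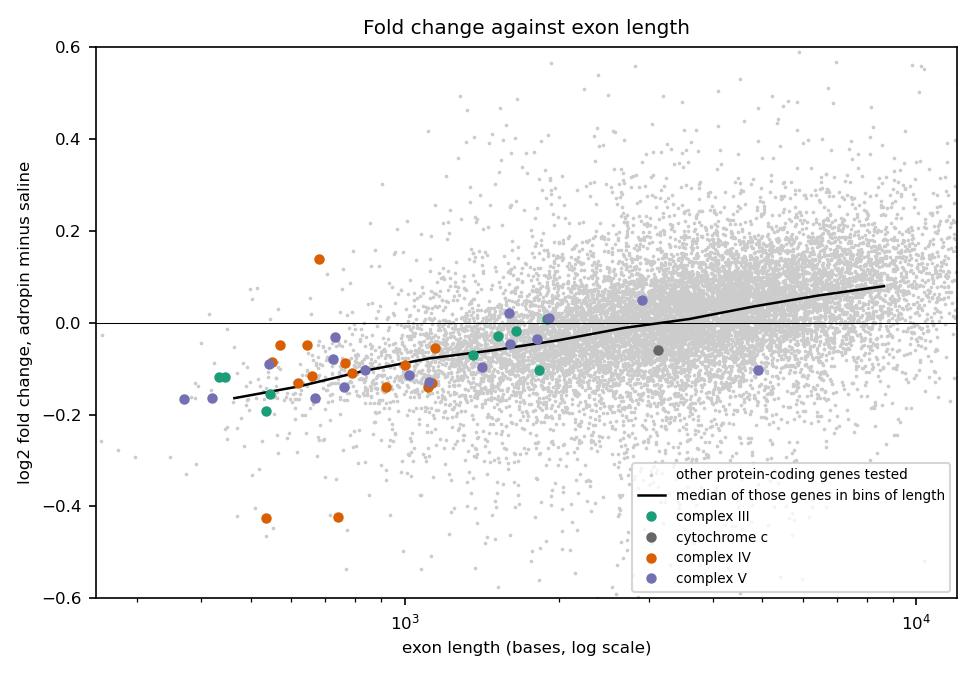
The log2 fold change of each tested protein-coding gene (vertical axis, adropin minus saline; estimates beyond 0.6 either way lie outside the plot) is set against its exon length in bases (log scale). Members scatter on both sides of the median of the other genes (black line), with Cox7a1 and Cox6b2 the lowest at -0.42 and Cox6a2 the highest at 0.14.

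In the alternative fit named above, the smooth trend of level on basic exon length was fitted on genes outside the list and removed. The medians were then 0.03, 0.0066 and 0.0081 for complexes III, IV and V. In the same terms the range of the members' mean over mice went from 0.64 to 0.12. Cox6a2 alone had an unadjusted p below 0.05 in that fit and was higher with adropin (log2 fold change 0.27, edgeR unadjusted p = 0.0389), 1 of 42 members against 4.5% of all genes in that fit.

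Genes that share near-identical sequence with some members show where reads could be split or left out. The counting used only uniquely placed reads. By a search on both strands, 12 members share at least 97% identity over 150 or more bases with another annotated gene. The counts of those genes came to 20.7% of the member's own in Atp5f1, 12.1% in Cycs, 11.4% in Uqcrb and 8.94% in Atp5l. Genes overlapping a member on the opposite strand were not left out, so the 12 and the percentages may include such neighbours. Of the 2 genes found for Atp5f1, 1 is a pseudogene, and Wdr77 overlaps Atp5f1 by 190 bases on the opposite strand. Exons of Cox4i1, Cox5a, Cox6a2, Cox6c, Uqcrb, Uqcrc2, Atp5a1, Atp5d, Atp5f1, Atp5j, Atp5l and Atp5o overlap a gene on the opposite strand, and whether counting used strand is not given in the sources used here, so reads of such pairs cannot be told apart.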

How the data were processed

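RNA-seq after poly-A selection was analysed for 8 adropin-treated and 8 saline-treated mice, each used as 1 replicate. The study gives 8 mice a group, chosen from those of its behavioural tests, while the labels themselves do not name separate animals. The p-values measure the spread between these samples. The authors aligned reads to an Ensembl primary assembly with STAR and deposited whole-number featureCounts counts, in which only reads with a single unambiguous place were used. CPM values deposited beside them are these counts scaled to library totals and were used only to check the scale. From the counts, TMM factors were computed, rRNA genes (355) left out, and the 14949 genes above 1 CPM in 7 mice or more tested by edgeR 4.0.16 quasi-likelihood with Benjamini-Hochberg adjustment (R 4.3.3), with limma 3.58.1 and DESeq2 1.42.0 as alternatives. Exon lengths and coordinates are from GENCODE on GRCm38, exons of the basic set merged. Counts of mice within a group differed beyond sampling noise in all 56 pairs (chi-square per degree of freedom from 8.52). On simulated counts for 14949 genes, edgeR recovered 197 of 200 genes changed by 1.5 on the log2 scale and called 7 unchanged ones, which does not speak to changes as small as those of the members. The members and gene lists were chosen with earlier results of these data known. Named genes are the isoform sets, core and catalytic subunits, the extremes and smallest p of each complex, members with a mouse that stands apart, and pathway genes with an unadjusted p below 0.05.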

Additional observations from a re-analysis of the deposited data

Results flagged for a closer look

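Of 94 sets of group values compared, a mouse stood apart from the other mice of its group by Dixon's ratio (0.526 for 8 mice) in 3, where chance gives about 4.7. Cox5b was at 267 CPM in saline-treated mouse 5_4, with the nearest value at 207 CPM. Cox7a1 was at 0.834 CPM in adropin-treated mouse 4_1, nearest value 1.26 CPM, and at 3.97 CPM in saline-treated mouse 8_3, nearest value 1.89 CPM.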

How the results depend on the processing

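The count of members below 0 (37) ranged from 30 to 42 under the other settings, leaving mice out included, except 17 once the exon length trend was removed, and the complex medians stayed below 0 except in that fit. One member was lower at an unadjusted p below 0.05 with no filter (Cox8b; 1 against 0), and leaving out a mouse gave 0 to 1 (Cox6b2 or Cox7a1). One member was higher (1, Cox6a2) with the length trend removed. Sign changes followed. With library size only Uqcrc2 was at -0.0124 and Atp5b at -0.0111. With Gm42418 as a covariate Uqcrc1 was at 0.0172, Uqcr11 at 0.00295, Cycs 0.00535, Cox6a1 0.0119, Atp5c1 0.00665, Atp5f1 0.00278 and Atp5g2 0.0222. When the first label number was blocked, Uqcrc2 was at -0.0907, Cox6a2 -0.0615, Atp5a1 -0.0165, Atp5b -0.0596 and Atp5s -0.0212, and with the second blocked the medians were -0.144, -0.128 and -0.137 and Uqcrc2 at -0.0126. With the length trend removed these were above 0: Cyc1 0.0278, Uqcr10 0.0415, Uqcr11 0.0446, Uqcrc1 0.0353, Cox4i1 0.0316, Cox5a 0.0798, Cox6a1 0.0935, Cox6b1 0.00591, Cox7a2 0.0168, Cox7a2l 0.0223, Cox7b 0.00659, Cox8a 0.0665, Atp5c1 0.00801, Atp5e 0.0141, Atp5f1 0.00907, Atp5g2 0.0811, Atp5g3 0.0370, Atp5k 0.00806, Atp5l 0.0600 and Atp5o 0.00561. Leaving out a mouse took Uqcrc2 from -0.0144 to 0.0265, Uqcrc1 from -0.0466 to 0.00865, Uqcr11 from -0.195 to 0.0152, Cox6a1 from -0.0843 to 0.0215, Cox8a from -0.125 to 0.00256, Atp5b from -0.00941 to 0.0381, Atp5g2 from -0.0592 to 0.00941 and Atp5s from -0.0183 to 0.0726. The causes were not tested. Over all genes, 596 had p below 0.05 in the main test, 1902 with no filter, 381 with Gm42418 as a covariate and 327 with the first label blocked. The labels do not say that these numbers pair mice. The block on the first number rests on mice numbered 2, 5 and 7, the only first numbers found in both groups.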

Other observations

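Other genes of the pathway were taken from lists written with earlier results known. All 6 mitochondrial-encoded subunits of complexes III to V (median exon length 734 bases) had a log2 fold change below 0. This compares with 50.8% of all genes and 91.3% of other protein-coding genes under 1000 bases. The estimates ran from -0.30 (mt-Atp8) to -0.22 (mt-Co1, mt-Co2), and the smallest unadjusted p was 0.101 (mt-Atp6, edgeR, adjusted p = 0.874). The mean log2 level of these 6 genes, relative to each gene's mean, was highest in saline-treated mice 5_4 (0.69) and 8_3 (0.64). It was lowest in adropin-treated mouse 2_4 (-0.62), and the group means differed by -0.22 against a pooled SD of 0.33. Their median log2 fold change was -0.24, and -0.15 without mouse 5_4. Subunits known under other symbols were at -0.09 for Ndufa4, now placed in complex IV, and at -0.16 for Usmg5 of complex V, and Atpif1, the inhibitor of ATP synthase, at -0.13. Of 36 complex I subunits tested (median exon length 1015 bases), 35 were below 0, against 50.8% of all genes and 91.3% and 76.9% of other protein-coding genes under 1000 and from 1000 to under 2000 bases. One of the 36 was lower at an unadjusted p below 0.05, against 2.13% of all genes, with Ndufb2 at -0.20 (edgeR unadjusted p = 0.0308, adjusted p = 0.874). Of the 4 complex II subunits 3 were below 0, and Sdha was at 0.05.

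Of 22 assembly factors of complex IV tested, 15 were below 0 and 1 was lower at an unadjusted p below 0.05, against 2.13% of all genes. This was Cox17, the copper chaperone of complex IV, at 4.62 ± 0.522 CPM with adropin and 5.81 ± 0.877 CPM with saline (mean and SD over the 8 mice of each group). The log2 fold change, -0.33, had an unadjusted p of 0.00485 and an adjusted p of 0.874 (edgeR). Of 5 assembly factors of complex V, 4 were below 0 and 1 was higher at that threshold, against 1.86% of all genes. Atpaf1, a chaperone of the F1 beta subunit, was at 38.4 ± 3.98 and 34.5 ± 3.12 CPM, a log2 fold change of 0.15 (edgeR unadjusted p = 0.0428). Of the 6 assembly factors of complex III, 2 were below 0, and of 13 nuclear regulators of respiratory genes 7 were, near the 50.8% of all genes.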
